A study of Mus musculus with 3 samples.

Results

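The constant genes of the mouse immunoglobulin heavy chain were followed through single-cell RNA profiles of spleen. The members were chosen by gene name and were the 8 heavy chain constant genes Ighm, Ighd, Ighg3, Ighg1, Ighg2b, Ighg2c, Ighe and Igha together with Jchain, 9 of the 32285 genes counted. The data came from 3 libraries made with a 10x Genomics 5′ kit from mice 12 to 14 weeks old, and RNA molecules were counted by their unique molecular identifiers (UMIs). Spleens had been depleted of T cells with CD3 microbeads, cells of 3 mice were combined for each condition, and each library held 2 conditions. The control library held male C57Bl/6 mice with sham minipumps and female C57Bl/6 mice without a pump named in the labels. The AngII library held male C57Bl/6 mice whose minipumps delivered angiotensin II for 2 weeks, with or without 2HOBA (2-hydroxybenzylamine, a scavenger of isolevuglandins). The B6.SLE123 library held female mice of B6.SLE123, a congenic strain that carries lupus susceptibility intervals on a C57Bl/6 background, given placebo or 2HOBA for 6 weeks. Strain, sex, treatment and library therefore cannot be told apart in any contrast between libraries. Cells carried 6 hashtag antibodies, C0301 to C0306, that no label ties to a condition or to a mouse, so 2HOBA was not compared and hashtag populations are given as ranges. With 1 library per group no test between conditions was possible. All intervals are 95% intervals for counting error only, and do not cover variation between mice. Those of levels and their ratios count UMIs as independent, and so do not cover variation between cells either.

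B cells carry antibody of the classes IgM and IgD on their surface, and both are made from the same primary transcript by alternative splicing of Ighm and Ighd. In class switch recombination the DNA is cut and rejoined so that the variable region comes to lie beside a downstream constant gene, and a cell that has switched expresses IgG, IgE or IgA instead. Plasma cells secrete large amounts of 1 class, and the J chain encoded by Jchain links secreted IgM and IgA into polymers. Lupus is known for IgG autoantibodies, and in mice the IgG2 subclasses are linked to interferon signals and to binding of activating Fc receptors.

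On the GRCm38 build the 8 heavy chain genes lie on the minus strand of chromosome 12, in the order in which switching can reach them. Ighm came first at chr12:113418558-113422730 and Ighd next at chr12:113406604-113416324. The 4 gamma genes followed, with Ighg3 at chr12:113356224-113361232, Ighg1 at chr12:113325240-113330523, Ighg2b at chr12:113302965-113307933 and Ighg2c at chr12:113285325-113288932. Ighe at chr12:113269260-113273248 and Igha at chr12:113254830-113260236 closed the array. Jchain is a separate gene on the minus strand of chromosome 5, chr5:88519809-88527891.

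A 5′ library samples the start of a transcript, so reads that name an isotype come from the first constant exon, CH1, or from beyond it. The gamma genes resemble each other in this exon. Whether that bears on the Ighg2b UMIs found in Ighg2c cells below was not tested. The first 120 bases of CH1 of the 4 gamma genes are shown for comparison, read 5′ to 3′ from the GENCODE vM21 transcripts. Capitals in Ighg3, Ighg1 and Ighg2b mark bases that differ from Ighg2c, and capitals in Ighg2c mark bases that differ from Ighg2b.
Ighg3: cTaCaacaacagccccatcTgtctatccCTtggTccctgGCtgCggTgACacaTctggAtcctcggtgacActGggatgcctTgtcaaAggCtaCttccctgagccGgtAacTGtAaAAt
Ighg1: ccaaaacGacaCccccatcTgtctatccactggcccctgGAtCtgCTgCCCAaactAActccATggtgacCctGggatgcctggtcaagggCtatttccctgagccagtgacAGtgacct
Ighg2b: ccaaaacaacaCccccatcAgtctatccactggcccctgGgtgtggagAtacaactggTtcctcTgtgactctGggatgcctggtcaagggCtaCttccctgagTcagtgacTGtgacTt
Ighg2c: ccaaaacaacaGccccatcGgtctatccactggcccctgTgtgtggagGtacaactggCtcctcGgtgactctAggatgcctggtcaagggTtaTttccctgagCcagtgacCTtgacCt
The Ighg2b exon lies at chr12:113307643-113307933 and the Ighg2c exon at chr12:113288642-113288932. Both exons are 291 bases long and are identical at 255 of those positions, or 87.6%, and the longest run without a difference is 34 bases. Identity of CH1 was 88.0% between Ighg1 and Ighg2c, 78.8% between Ighg3 and Ighg2c and 55.4% between Ighm and Ighg2c. No window of 50 bases in CH1 was shared by any pair of the 8 genes.

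Cells were classed by the counts of a few genes. A plasma cell had 3 or more Jchain UMIs and 2 or more UMIs summed over Sdc1, Tnfrsf17, Prdm1 and Derl3. A B cell had 2 or more UMIs of Cd79a, a signalling chain of the B cell receptor, and was no plasma cell. The libraries held 16062 to 20691 barcodes and 44146350 to 63516694 gene UMIs, and 14017 to 16702 cells were kept. Between 415 and 496 barcode sequences were shared by any 2 libraries. The median depth of B cells was 1797 UMIs in the control library, 2777 in the AngII library and 1967.5 in the B6.SLE123 library. Markers that the rules did not use went with the class names. Mzb1, a chaperone of antibody assembly, stood at 3252 to 5364 UMIs of the gene per 1000000 UMIs of the cells (CPM) in plasma cells and at 408.8 to 673.4 CPM in B cells. Pax5, the factor that maintains B cell identity, stood at 0 to 11.5 CPM in plasma cells and at 201.5 to 319.7 CPM in B cells.

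Plasma cells made up a larger share of the B6.SLE123 library than of the others. There were 16 plasma cells in the control library (0.102% of kept cells, 0.0583 to 0.165), 35 in the AngII library (0.25%, 0.174 to 0.347) and 290 in the B6.SLE123 library (1.74%, 1.54 to 1.95). The share was 17.0-fold higher in B6.SLE123 than in control, with a log2 ratio of 4.09 (3.37 to 4.92). It was 2.45-fold higher in AngII than in control, with a log2 ratio of 1.29 (0.40 to 2.25). Among the 6 hashtags the share ranged from 0 to 0.3304% in control, from 0.1415 to 0.4018% in AngII and from 0.6007 to 2.857% in B6.SLE123, so the 6 populations of B6.SLE123 lay above all others. In control, 10 of the 16 plasma cells came from hashtag C0302, which bears on every value of control plasma cells below. The members just inside the rule, with a marker sum of exactly 2, numbered 52 in B6.SLE123, and 69 cells just outside it had 3 or more Jchain UMIs and a marker sum of 1. A stricter rule, of 10 Jchain UMIs and a marker sum of 4, gave 14, 26 and 192 plasma cells in control, AngII and B6.SLE123. A rule without Jchain gave 24, 43 and 248. The 17.0-fold and 2.45-fold values thus belong to the rule used.

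Each plasma cell was assigned the heavy chain gene with the most UMIs. The call needed 3 heavy chain UMIs and was clear in most cells. The top gene held a median of 99.9% of heavy chain UMIs in control, 100% in AngII and 99.6% in B6.SLE123 plasma cells, and a plasma cell carried a median of 374, 573 and 399 heavy chain UMIs. IgM was the most frequent class in control and AngII, and IgG and IgM were about equally frequent in B6.SLE123. In control, 12 of 16 plasma cells were Ighm cells, 2 were Ighg2b cells, 1 was an Ighg3 cell and 1 was an Ighg2c cell. The IgG share in control was 25.0% (7.27 to 52.4). In AngII, 28 of 35 were Ighm cells, 5 were Ighg2c cells and 2 were Ighg2b cells. The IgG share in AngII was 20% (8.44 to 36.9). In B6.SLE123, 286 of 290 plasma cells had a call, and 140 of them, or 48.95%, were IgG cells (43.02 to 54.9). The counting interval of the pooled B6.SLE123 share lay above that of AngII and overlapped that of control, where 16 cells allow little precision. Over hashtags the IgG share ran from 0 to 30% in AngII, with 3 to 10 plasma cells each. In B6.SLE123 it ran from 12 to 59.42%, so these ranges overlapped.

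Ighg2c, the gene of the IgG2c subclass that C57Bl/6 mice have in place of IgG2a, accounted for most of the IgG plasma cells of B6.SLE123. Ighm was the top gene in 135 cells (47.2%, 41.3 to 53.17) and Ighg2c in 90 (31.47%, 26.13 to 37.2). Ighg2b followed with 23 cells (8.042%), Ighg1 with 16 (5.594%), Ighg3 with 11 (3.846%) and Igha with 10 (3.497%). Ighe, the gene of the class bound by mast cells, was the top gene of 1 cell with 156 Ighe UMIs. No plasma cell of any library had Ighd as its top gene. In B6.SLE123, 0 of 286 cells allows a share of up to 1.282%, and a floor of 3 cells would be 1.049%.

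**Figure D1:**
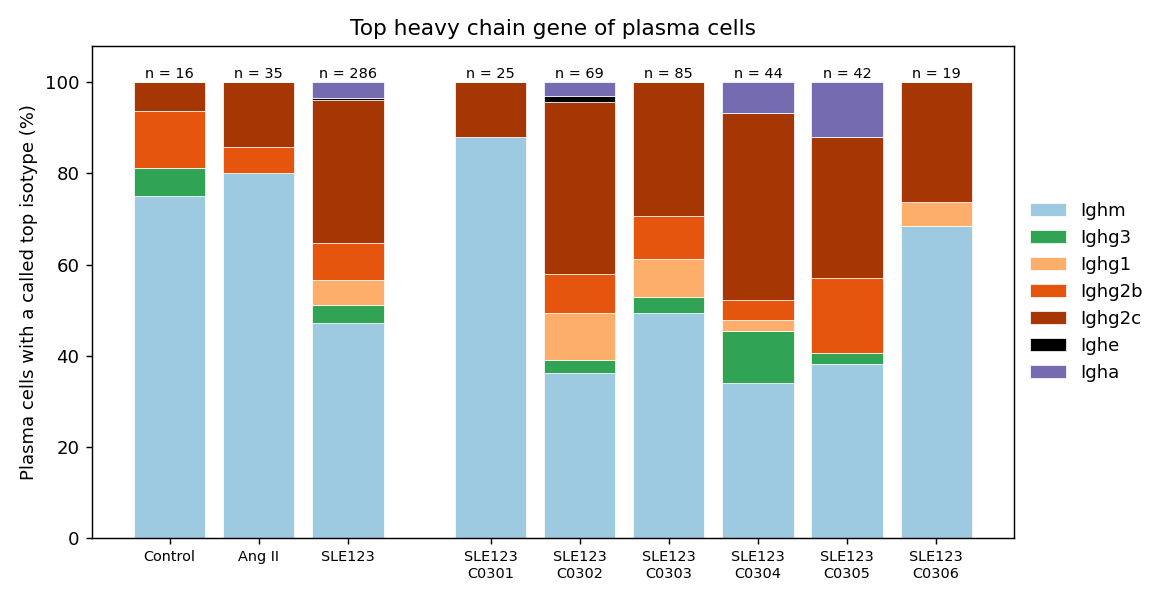
Share of plasma cells by top heavy chain gene (y axis, percent of cells with a call) in the 3 libraries (left) and in the 6 hashtag populations of B6.SLE123 (right), with the number of cells above each bar. Ighm cells are the largest group in control and AngII, and Ighg2c cells take 12 to 40.91% of the hashtag populations of B6.SLE123.

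The hashtag populations of B6.SLE123 differed in isotype. The IgG share of plasma cells had a lowest value of 12%, a median of 50.3% and a highest of 59.42% among the 6 populations. The lowest value belonged to C0301, where 22 of 25 plasma cells were Ighm cells. C0306 was next with 6 IgG cells of 19, and the other 4 populations lay at 50% or above. All 10 Igha cells came from C0302, C0304 and C0305, with 2, 3 and 5 cells. Of the 11 Ighg3 cells, 5 came from C0304, and of the 16 Ighg1 cells, 7 each came from C0302 and C0303. The plasma cell share and the IgG share were both low in C0301 and C0306, the populations with the fewest plasma cells.

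Levels summed over plasma cells depend on the output of each cell as well as on these cell counts. Ighm stood at 50830 CPM in control, 30750 CPM in AngII and 23000 CPM in B6.SLE123, although AngII had the largest share of Ighm cells. Ighg2c stood at 1909 CPM in control, 8494 CPM in AngII and 10700 CPM in B6.SLE123. The Ighg2c level was 5.60-fold higher in B6.SLE123 than in control, where a single cell supplied its 315 UMIs. Ighg1 had no UMI in plasma cells of control and 4931 UMIs in those of B6.SLE123, 3233 of them in C0302 and 1679 in C0303. Set against a floor of 3 UMIs over the control plasma cells, its level was 86.6-fold higher, a value that counts UMIs and not cells. By cell, 0 of 16 in control allows an Ighg1 share of up to 20.59%, above the 5.594% of B6.SLE123. The cell counts thus set no lower limit on the difference. Ighg1 was also at 0 UMIs in the plasma cells of AngII. Igha was 15.88-fold higher in B6.SLE123, at 1251 CPM against 78.79 CPM, but control held only 13 Igha UMIs, 10 of them in C0301. Its log2 ratio of 3.99 was 5.92 without C0301 and 2.73 without C0302 of control, and 0.61, under 2-fold, when barcodes of several hashtags were not removed. Of 8 members compared, 4 were thus 2-fold or more higher in B6.SLE123 than in control, against 14.8% of all 4155 genes compared. They were Ighg1, Ighg2c, Ighe and Igha. The Ighe value (log2 ratio 3.04, 0.54 to 8.35) rested on 156 UMIs in 1 cell of C0302 of B6.SLE123 and on 1 UMI in control. Another 3, Ighm, Ighg3 and Ighg2b, were 2-fold or more lower, against 5.01% of all genes. The Ighm log2 ratio of -1.14 fell short of 2-fold with no upper limit on genes detected (-0.52), under the plasma cell rule without Jchain (-0.82), without C0302 of control (-0.90) and without C0302 of B6.SLE123 (-0.98). The Ighg3 and Ighg2b values rested on 3 control cells. Without hashtag C0302 of control the log2 ratio of Ighg2b was 6.41 in place of -1.35, and without C0306 of control that of Ighg3 was 4.64 in place of -1.38. In AngII against control, Ighg2c was 2-fold or more higher (4.45-fold, against 7.82% of 985 genes) and Ighg3 and Ighg2b were 2-fold or more lower (against 8.93%), among 5 members compared and from the same few control cells. The Ighg2c log2 ratio of 2.15 was 0.76 with no upper limit on genes detected and 0.98 without C0304 of AngII, which supplied 3277 of the 4785 UMIs, so neither reached 2-fold.

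Jchain marked plasma cells by rule, so its level between libraries is no finding, but it varied between isotypes within a library. In B6.SLE123, Jchain stood at 43410 CPM in Igha plasma cells and at 33630 CPM in Ighm plasma cells. It stood at 26440 CPM in Ighg1, 24800 CPM in Ighg2c, 23470 CPM in Ighg3 and 21370 CPM in Ighg2b cells. The Igha and Ighm cells, of the polymeric classes, thus had the higher levels among the cells that the rule admitted. The rule left out cells of any isotype with fewer than 3 Jchain UMIs. The same order of Ighm cells over IgG cells was seen in AngII, with 49350 CPM in Ighm cells against 16910 CPM in Ighg2c and 14090 CPM in Ighg2b cells. In control it was 36950 CPM in 12 Ighm cells against 7010 to 23260 CPM in the 4 IgG cells. Single cells varied more than these sums. The 10 Igha cells of B6.SLE123 held 198 to 1364 Jchain UMIs, the 135 Ighm cells 3 to 1076 and the 90 Ighg2c cells 16 to 889.

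Ighg2c plasma cells of B6.SLE123 often held Ighg2b UMIs as well, and how often depended on the hashtag. Of the 90 cells, 32 had a second heavy chain gene at 10% or more of their heavy chain UMIs, and it was Ighg2b in 25, Ighm in 5, Ighg3 in 1 and Igha in 1. Among the 88 Ighg2c cells with 20 or more heavy chain UMIs, 31 had Ighg2b at 5% or more. All 11 such cells of C0305 did, with Ighg2b shares of 5.38 to 23.2%. In C0303 11 of 25 cells and in C0304 9 of 18 cells did, and the rest of those populations held at most 0.13%. In C0302 0 of 26 cells did, with a highest share of 4.65%, and neither did any of the 3 cells of C0301 or the 5 of C0306. The values in C0303 and C0304 fell into separate groups, with no cell between 0.13 and 6.6%.

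**Figure D2:**
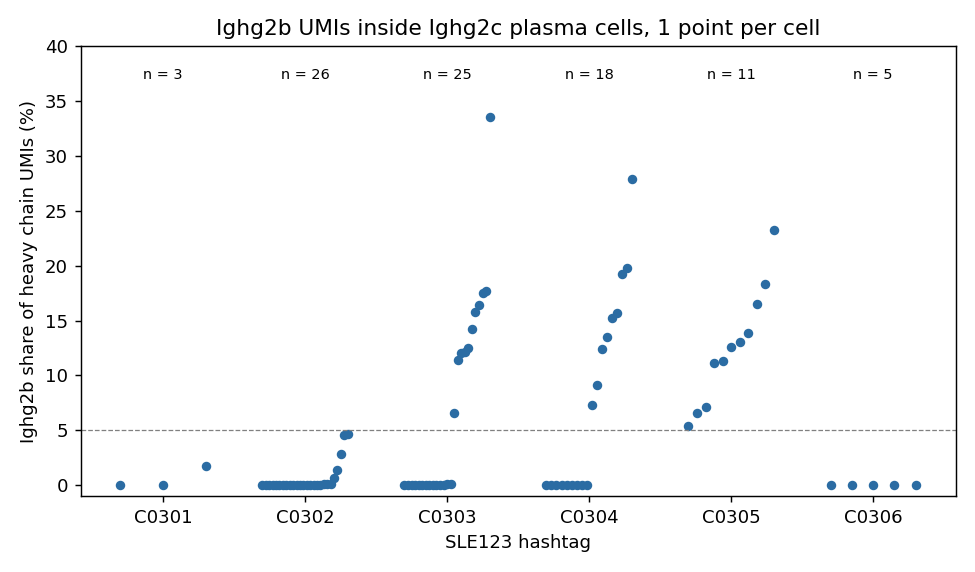
Share of heavy chain UMIs that were Ighg2b (y axis, percent) in each Ighg2c plasma cell of B6.SLE123 with 20 or more heavy chain UMIs, by hashtag (x axis), with the cells of each hashtag in order of the share. Every cell of C0305 lies above the dashed line at 5%, 11 of 25 cells of C0303 and 9 of 18 of C0304 do, and none of the other 3 hashtags does.

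Ighg2b was rarer beside the other genes. Of 21 Ighg2b plasma cells of B6.SLE123 with 20 or more heavy chain UMIs, 1 had Ighg2c at 5% or more, with 6.85%. Ighg2b reached 5% in 0 of 14 Ighg1 plasma cells and in 0 of 132 Ighm plasma cells, but in 9 of 166 Ighm B cells of the same library with that many heavy chain UMIs. The B cells called Ighg2c, at 20 or more heavy chain UMIs, showed Ighg2b at 5% or more in 3 of 17, namely 1 of 1 cell of C0304 and 2 of 2 of C0305. In AngII 1 of 5 Ighg2c plasma cells had it, at 9.15%, and in control 0 of 1. The 31 mixed plasma cells used 16 different heavy chain variable genes as their most abundant, with Ighv5-4 in 6 cells, and the 57 others used 28. Mixed cells held a median of 185 heavy chain UMIs and the others 460, at total depths of 11345 and 11396 UMIs. The part of the likeness of the CH1 exons shown above in this mixture was not tested.

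In B cells the unswitched classes dominated every library. Ighm stood at 2359 CPM in control (2341 to 2378), 1459 CPM in AngII (1447 to 1472) and 1762 CPM in B6.SLE123 (1747 to 1776). The log2 ratio to control was -0.69 in AngII (-0.71 to -0.68) and -0.42 in B6.SLE123 (-0.44 to -0.41). Over the 6 hashtags Ighm had a lowest, median and highest level of 2168, 2300 and 2633 CPM in control, 1344, 1470 and 1538 CPM in AngII and 1579, 1639 and 2175 CPM in B6.SLE123. All AngII populations lay below all control populations, and 1 population of B6.SLE123, C0303 at 2175 CPM, overlapped the lowest control.

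Against control, Ighd was lower than Ighm on the log2 scale in B6.SLE123 and less reduced than Ighm in AngII. It stood at 788.2 CPM in control, 594.3 CPM in AngII and 453.2 CPM in B6.SLE123, with log2 ratios to control of -0.41 (-0.43 to -0.38) and -0.80 (-0.83 to -0.77). The hashtag ranges were 760.6 to 836.2, 561.1 to 629.3 and 379 to 514.1 CPM and did not overlap. Ighd UMIs per Ighm UMI were 0.334 in control, 0.407 in AngII and 0.257 in B6.SLE123. The ranges of this ratio over hashtags, 0.3176 to 0.3576, 0.383 to 0.4268 and 0.2363 to 0.2907, did not overlap either. Cells with 50 or more Ighm UMIs held 10.5% of Ighm UMIs in B6.SLE123, 3.54% in control and 0.389% in AngII. Without B cells of 3 or more Jchain UMIs, Ighd stood at 797.5, 599.5 and 495.6 CPM in control, AngII and B6.SLE123. Ighm then stood at 2288, 1459 and 1703 CPM. In all, 2 members, Ighm and Ighd, lay below control in all 6 AngII hashtags, against 4.86% of 11485 genes compared, and none lay above, against 7.64%. In B6.SLE123 only Ighd lay below in all 6, against 10.2% of 11541 genes, so such a pattern was common among all genes. No member was 2-fold or more lower in B6.SLE123, against 1.82% of all genes.

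**Figure D3:**
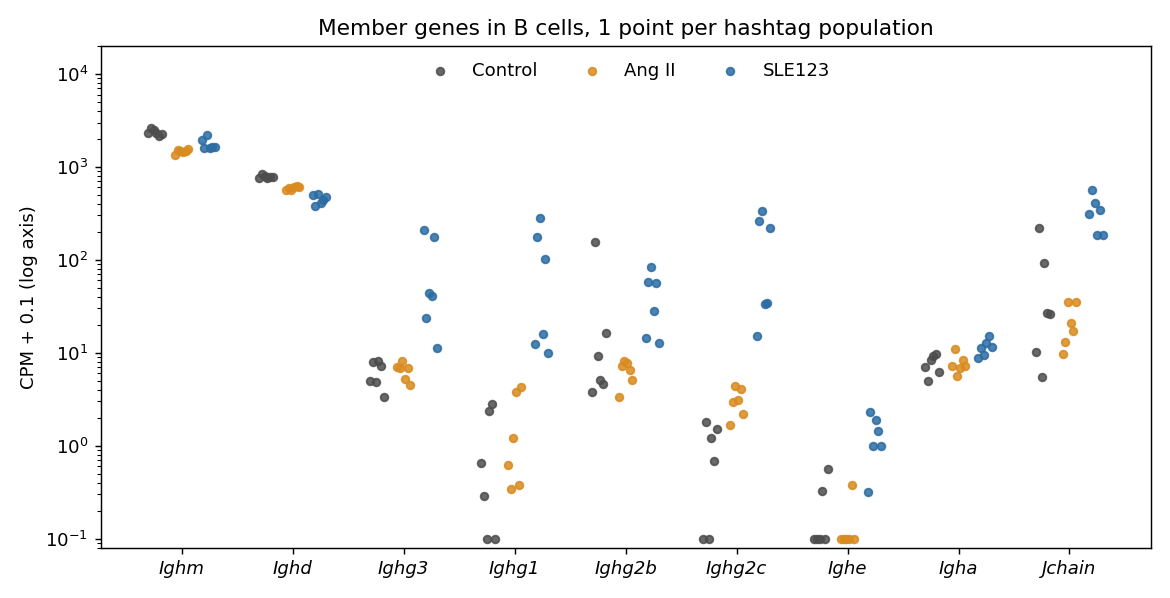
Level of the 9 members in B cells (y axis, CPM plus 0.1 on a log axis), with 1 point per hashtag population and library. Ighm and Ighd lie in narrow bands, whereas Ighg3, Ighg1 and Ighg2c of B6.SLE123 lie above all 6 control populations and spread over more than 10-fold.

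The gamma genes were higher in B cells of B6.SLE123. Ighg2c stood at 168.5 CPM in B6.SLE123 (164.1 to 173.1) against 0.8258 CPM in control and 3.029 CPM in AngII. Its hashtag populations in B6.SLE123 had a lowest of 15.21, a median of 126.1 and a highest of 334 CPM, whereas control ranged from 0 to 1.677 CPM and AngII from 1.553 to 4.259 CPM. Ighg1, a subclass linked to interleukin 4, stood at 100.8 CPM in B6.SLE123, 1.005 CPM in control and 1.763 CPM in AngII. Its hashtag range in B6.SLE123 was 9.812 to 280.9 CPM, and in control 0 to 2.743 CPM. Ighg3 stood at 76.95, 6.068 and 6.224 CPM in B6.SLE123, control and AngII, with 11.24 to 211.2 CPM over the B6.SLE123 hashtags and 3.274 to 8.08 CPM over those of control. The log2 ratios of B6.SLE123 to control were 7.67 for Ighg2c (7.09 to 8.33), 6.65 for Ighg1 (6.11 to 7.24) and 3.67 for Ighg3 (3.44 to 3.90).

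Together with Jchain (log2 ratio 2.21, 2.14 to 2.28) these 3 genes made 4 of 8 members that were 2-fold or more higher in B6.SLE123, against 5.53% of 11541 genes compared. The Jchain level was limited by the rule that set plasma cells apart from B cells. Its hashtag ranges overlapped, at 183.7 to 565.1 CPM in B6.SLE123 and 5.442 to 220.1 CPM in control. The same 3 gamma genes lay above all control populations in all 6 hashtags, against 9.53% of all genes. The median log2 ratio of all genes was -0.041. Ighe had too few UMIs to enter that count, with 40 UMIs in B6.SLE123 and 3 in control. Igha stood at 11.33, 7.612 and 7.518 CPM in B6.SLE123, control and AngII, with overlapping hashtag ranges of 8.781 to 15.15 CPM and 4.845 to 9.599 CPM in the first 2.

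Most of these UMIs lay in few cells. In B6.SLE123 B cells, 4 cells sufficed to reach 50% of the 5353 Ighg2c UMIs, and 4 cells each did so for the 3200 Ighg1 and the 2444 Ighg3 UMIs. Cells with 50 or more UMIs of the gene held 84% of Ighg2c, 80.9% of Ighg1 and 59% of Ighg3 UMIs. After the 450 B cells of B6.SLE123 and the 53 of each other library with 3 or more Jchain UMIs were left out, Ighg2c stood at 14.14 CPM in B6.SLE123, 0.3997 CPM in control and 2.113 CPM in AngII. Ighg1 then stood at 14.28, 0.9812 and 1.668 CPM and Ighg3 at 25.27, 5.669 and 5.339 CPM. The log2 ratios to control became 5.15, 3.86 and 2.16. T or NK cells of B6.SLE123 held 16.12 CPM of Ighg1 (8.812 to 27.04), 6.908 CPM of Ighg2c (2.535 to 15.04) and no Ighg3 UMI. The remaining Ighg1 and Ighg2c levels lay within the counting intervals of T or NK cells, and the Ighg3 level lay above theirs. Neutrophils, classed by S100a8 and S100a9 and without Cd79a, were a second background. In B6.SLE123 they held 4.713 CPM of Ighg1 (2.26 to 8.668) and 2.828 CPM of Ighg2c (1.038 to 6.155). The remaining levels of both genes lay above those intervals, and their source was not tested.

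Ighg2b was the exception among the gamma genes. It stood at 41.94 CPM in B6.SLE123 and 35.51 CPM in control B cells, but 777 of its 989 control UMIs came from 1 cell of hashtag C0302. Over hashtags the median was 42.09 CPM in B6.SLE123 and 7.061 CPM in control, and without C0302 of control the log2 ratio was 2.55 in place of 0.24. In AngII, 6.417 CPM of Ighg2b gave a log2 ratio to control of -2.47, which was -0.16 without C0302 of control. Jchain in AngII B cells likewise had a log2 ratio of -1.67, which was -0.71 without C0302 of control. These 2 members were 2-fold or more lower in AngII, against 0.853% of all genes, with the same limit of the rule for Jchain. Ighg2c was the only member 2-fold or more higher in AngII, against 1.09% of all genes, at a log2 ratio of 1.88 (1.22 to 2.59) that rested on 110 and 23 UMIs.

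By cell, the top isotype was Ighm in 8879 of 10495 called B cells of control, 7274 of 8974 of AngII and 7578 of 9044 of B6.SLE123, and most others were Ighd cells. A switched isotype was called in 32 control B cells (0.3049%, 0.2086 to 0.4302), 49 AngII B cells (0.546%, 0.4042 to 0.7212) and 273 B6.SLE123 B cells (3.019%, 2.676 to 3.392). The switched share was 9.90-fold higher in B6.SLE123 than in control, with a log2 ratio of 3.31 (2.78 to 3.88). It was 1.79-fold higher in AngII, with a log2 ratio of 0.84 (0.17 to 1.53). Hashtag populations ranged from 0.1936 to 0.4461% in control, 0.3636 to 0.7485% in AngII and 0.8883 to 5.394% in B6.SLE123. Every B6.SLE123 population lay above every other population, and AngII and control overlapped. B cell calls rested on fewer UMIs than plasma cell calls, with medians of 6, 7 and 6 heavy chain UMIs in control, AngII and B6.SLE123. By gamma gene, the median in B6.SLE123 was 5 to 7 UMIs. A second heavy chain gene held 10% or more in 54.5 to 60% of those cells. No call was made in 2461 of 12956 B cells of control, 2378 of 11352 of AngII and 3722 of 12766 of B6.SLE123.

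Depth differed between the libraries, so each cell was also thinned to 1000 UMIs. After 689, 429 and 1078 shallower B cells of control, AngII and B6.SLE123 were left out, the switched share was 0.1658%, 0.3057% and 1.713%. The log2 ratio to control was then 3.37 for B6.SLE123 (2.45 to 4.43) and 0.88 for AngII (-0.46 to 2.23), so for AngII the interval included no difference. Without B cells of 3 or more Jchain UMIs the switched share was 0.2105%, 0.3919% and 1.396%, with 22, 35 and 122 cells. The log2 ratio to control was 2.73 for B6.SLE123 and 0.90 for AngII.

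**Figure D4:**
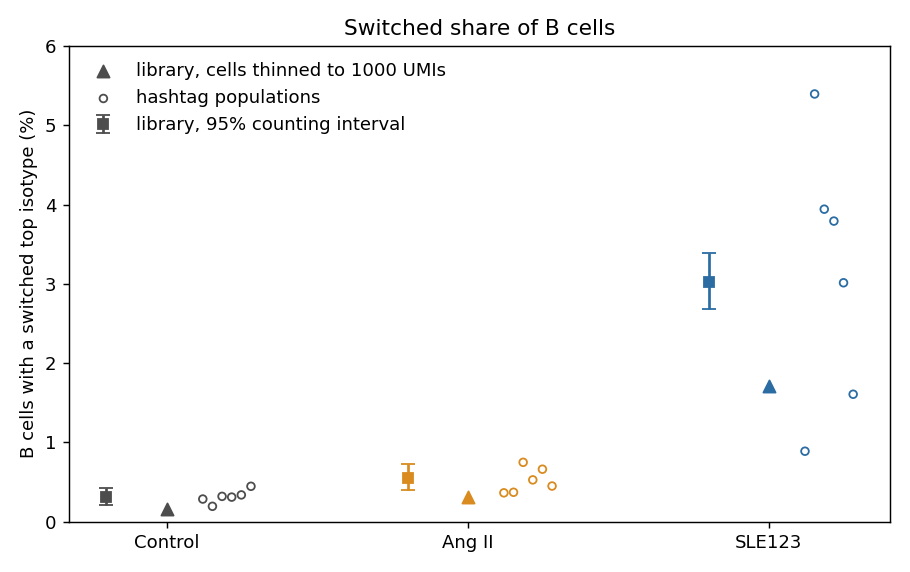
Share of B cells whose top heavy chain gene was a switched isotype (y axis, percent of cells with a call) in the 3 libraries. Squares with bars are whole libraries with 95% counting intervals, and triangles are the cells of 1000 or more UMIs, thinned to 1000 UMIs. Open circles are the 6 hashtag populations, which in B6.SLE123 run from 0.8883 to 5.394% and lie above all others.

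The switched B cells of B6.SLE123 were spread over the gamma genes, whereas those of control and AngII were few. In B6.SLE123, 79 had Ighg2c, 66 Ighg1, 58 Ighg2b, 55 Ighg3, 13 Igha and 2 Ighe as top gene. In control 18 of 32 had Ighg2b and 8 had Igha, and Ighg2c, Ighg1 and Ighg3 were the top gene of 2, 1 and 3 cells. In AngII 14 had Ighg2b, 14 Ighg2c, 11 Ighg3, 5 Ighg1 and 5 Igha. Ighg2c was thus the top gene of 90 of 140 IgG plasma cells of B6.SLE123 and of 79 of its 258 IgG B cells. In B6.SLE123 hashtag C0302 gave 22 of the 66 Ighg1 cells and 27 of the 79 Ighg2c cells.

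T or NK cells, which should lack these genes, gave the background of free RNA. They held 111.1 CPM of Ighm in control, 157.6 CPM in AngII and 119.7 CPM in B6.SLE123, far below B cells. Gamma UMIs numbered 0 in 530 such cells of control, 5 in 642 of AngII and 21 in 553 of B6.SLE123. None of the 6, 30 and 4 such cells with a call had a switched isotype, though so few calls limit that share little. A gamma UMI was found in 1.405% of control B cells, 2.502% of AngII B cells and 12.27% of B6.SLE123 B cells, against 0%, 0.7788% and 3.436% of T or NK cells, whose median depth was 1755, 3183 and 1364 UMIs. Jchain UMIs were found in 13.14% of B6.SLE123 B cells and in 7.052% of T or NK cells, and after thinning in 7.811% and 4.186%. In AngII they were found in 3.391% of B cells and 2.96% of T or NK cells, and after thinning in 1.492% and 0.4831%. The AngII levels were 22.94 CPM in B cells (21.41 to 24.55) and 8.929 CPM in T or NK cells (5.454 to 13.79). The make-up of the gamma UMIs also differed between the classes. Of 21 gamma UMIs in T or NK cells of B6.SLE123, 14 were Ighg1, or 66.7 per 100, against 9 per 100 in plasma cells and 26 per 100 in B cells.

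The genes known to act in switching and in the life of switched cells were compared as 6 lists. In B cells of B6.SLE123 against control, 2 of 11 genes of the switch machinery were 2-fold or more higher and none was lower, beside 5.53% higher and 1.82% lower of all genes. The list median was 0.151 on the log2 scale, and that of all genes -0.041. Ung, which excises uracil from DNA, had a log2 ratio of 1.09 (0.84 to 1.35), and H2afx, a histone that marks DNA breaks, of 1.19. Of 14 genes of signals that direct switching, 2 were higher and none was lower, with a list median of -0.066. Tbx21, which encodes T-bet and favours IgG2c, had a log2 ratio of 2.31 (1.97 to 2.66), and Batf, a transcription factor needed for switching, of 1.17.

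Of 14 genes of memory, germinal centre and atypical B cells, 9 were 2-fold or more higher in B6.SLE123 and none was lower, with a median log2 ratio of 1.33, beside the same 5.53%, 1.82% and -0.041 of all genes. They included Zbtb32 (3.37), S1pr2, a receptor that holds cells in germinal centres (3.06), and Nt5e, which encodes CD73 (2.45). Tbx21, already counted among the directing signals, was also 1 of the 9. In the other lists 0 of 11 secretion genes, 0 of 5 heavy chain receptors and 0 of 6 naive B cell genes were higher, and 1, 1 and 2 were lower. Those were Sdc1, a plasma cell marker used in the rule that removed plasma cells from B cells (-1.18), Fcer2a, which encodes the IgE receptor CD23 (-1.38), and Cr2, the complement receptor CD21 (-1.08), with Fcer2a in both of the last 2 lists. In AngII against control none of these lists had a gene 2-fold or more higher or lower, beside 1.09% and 0.853% of all genes, and their medians ran from -0.167 to 0.185 against 0.052 for all genes. Tbx21 in AngII had a log2 ratio of 0.02 (-0.40 to 0.44).

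Within B6.SLE123 the 273 switched B cells were set beside 8771 unswitched B cells of the same library. Of all 10235 genes compared, immunoglobulin genes left out, 8.92% were 2-fold or more higher and 12.9% lower in switched cells. The machinery list had 5 of 11 genes higher, among them H2afx at 482.8 against 108.4 CPM (log2 ratio 2.15) and Ung at 35.76 against 11.8 CPM (1.60). A count of 7 of 10 secretion genes were higher, among them Edem1 (1.80), Xbp1, the factor that expands the secretory apparatus (1.77), and Creld2 (1.74). The 7 include Prdm1 (1.14, -0.06 to 2.17, from 9 UMIs in switched cells) and Derl3 (1.06), whose values were limited by the rule that set plasma cells apart from B cells. In the memory and germinal centre list S1pr2 (3.75), Mki67, a marker of cell division (3.08), and Fas (2.52) were higher and Cd38, which germinal centre cells of mice lose, was lower (-1.76), as 5 genes higher and 3 lower of 14.

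The genes of the resting state were lower in the switched cells. All 5 heavy chain receptors compared were 2-fold or more lower, including Fcer2a (-3.10), Fcmr, which encodes the receptor of IgM (-1.85), and Fcgr2b, the inhibitory receptor of IgG (-1.70). Of 6 naive B cell genes 5 were lower, with Cr2 at -4.67 and Satb1, a chromatin organiser, at -3.98. Of 14 genes of directing signals 4 were lower and none was higher. Tbx21 had a log2 ratio of 0.23 (-0.34 to 0.75) between switched and unswitched cells of B6.SLE123, so its higher level in that library was not seen to differ between them.

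**Figure D5:**
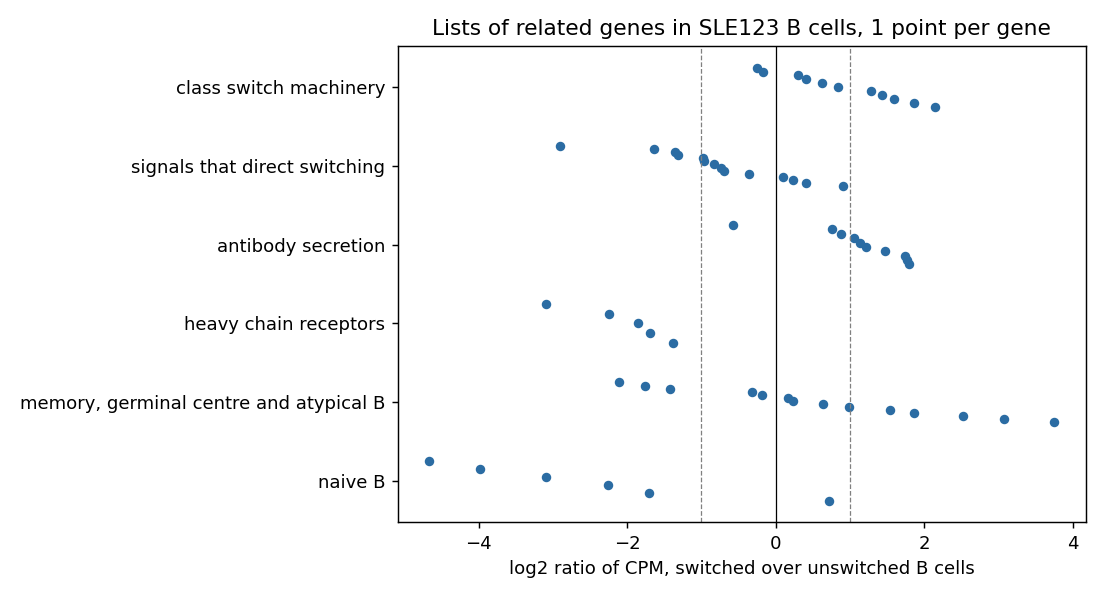
Log2 ratio of CPM between switched and unswitched B cells of B6.SLE123 (x axis) for each gene of 6 lists, with dashed lines at 2-fold. Secretion genes lie mostly to the right, naive B cell genes and heavy chain receptors to the left, and the memory, germinal centre and atypical list on both sides.

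The genes farthest apart among all but the immunoglobulin genes were named by rank. Slpi, a protease inhibitor, was highest in switched cells of B6.SLE123 at 2281 against 35.36 CPM, but 2792 of its 3955 UMIs came from 1 hashtag. Parm1, Rflna, Gcsam, a germinal centre signalling molecule, and Irak1bp1 followed, with log2 ratios from 4.31 to 5.01. Cnn3, Klk8, Rgl1, Cr2 and Hbb-bs were lowest, with log2 ratios from -5.61 to -4.65. Slpi was also first in control (2879 against 15.42 CPM), where 482 of 498 UMIs came from 1 hashtag, and Gcsam was first in AngII (log2 ratio 6.53).

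Switched cells were deeper than unswitched ones and more often held 3 or more UMIs of Jchain, a gene of the plasma cell rule. Their median depth was 5659 against 2147 UMIs in B6.SLE123, 5432 against 2899 in AngII and 4181.5 against 1857 in control. At least 3 Jchain UMIs were found in 55.3% of switched and 1.77% of unswitched B cells of B6.SLE123, and in 31.2% and 28.6% of the switched cells of control and AngII. The part of depth and of cells with Jchain UMIs in the list values was not tested. Over the 18 hashtag populations of B cells, centred within each library, the genes whose log2(CPM + 1) went most with the summed gamma genes were Kifc1 (Pearson r 0.838), Cd69 (0.81), Jun (0.799), Fosb (0.791) and Nsun6 (0.77) among 10143 ranked. The populations of a library share its depth and preparation, and the values are a description.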

How the data were processed

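The deposited files hold raw UMI counts per gene and barcode and counts of 6 hashtag antibodies, which the authors made with Cell Ranger against mm10. From these counts, barcodes with 200 to 3500 genes detected, under 15% mitochondrial UMIs and no more than 1 hashtag were kept, and no further doublet caller was run. A top isotype needed 3 heavy chain UMIs. Levels are summed UMIs of a class per 1000000. Intervals are exact at the 95% level (Poisson for levels, Clopper-Pearson for shares, conditional binomial for ratios) and cover counting error only. A gene was compared where both groups held 50 UMIs together, and named where it was a member, belonged to 1 of 6 lists or ranked among the first 5 by ratio or likeness. Genes of 2-fold or more were counted. Exon and gene positions and sequences came from GENCODE vM21 on GRCm38. The members and lists were chosen with earlier results of these data known. Genes that are not reported here were left out of the lists. The mixed isotypes and the setting without B cells of 3 or more Jchain UMIs were chosen after the data were seen. Python 3.11.15, NumPy 2.4.6, SciPy 1.17.1 and pandas 2.3.3 were used, and functions were tested on simulated data.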

Additional observations from a re-analysis of the deposited data

Results flagged for a closer look

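Of the 3989 barcodes of B6.SLE123 that the filters removed, 118 met the plasma cell rule (2.96%), against 13 of 2518 in control (0.516%) and 11 of 2045 in AngII (0.538%). They were flagged as signal in barcodes that no comparison above used, apart from the settings that lifted a filter. A top isotype was called in 116 of them, and 60 were IgG cells (51.7%, 42.3 to 61.1), with 47 Ighm, 35 Ighg2c, 11 Ighg2b, 9 Igha, 8 Ighg3 and 6 Ighg1 cells. Carrying several hashtags (94) or too many genes (41) was the usual reason for removal.

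Among kept cells of B6.SLE123 that were neither B nor plasma cells, 35 of 416 with a call had a switched isotype (8.41%, 5.93 to 11.5), against 0 of 370 in control and 0 of 264 in AngII. They were flagged because the control library had none. Their top genes were Ighg2c in 12, Ighg1 in 10, Ighg2b in 6, Ighg3 in 5 and Igha in 2 cells.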

How the results depend on the processing

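Over 32 results, 573 values were recomputed under other settings. Of these, 538 kept their sign. Set beside the counting interval of the reported value, 367 lay inside it, 198 moved outside it and 8 were counted as reversed. A sign change was counted as reversed only where the reported value was 2-fold or more. The limits of 200 and 3500 read as UMIs in place of genes left 10 plasma cells of B6.SLE123, 2 of control and 0 of AngII. The IgG share was then 20% and the IgM share 80%, the log2 ratio of the switched share of B6.SLE123 was 2.69, and that of Ighm in B cells was -0.40 for B6.SLE123 and -0.62 for AngII. Ighg2b in AngII B cells turned to 0.76. With no upper limit on genes Ighm was -0.46 for B6.SLE123, and with barcodes of several hashtags it was -0.66 for AngII. With Ms4a1 also required it was -0.52 and -0.68. Without B cells of 3 or more Jchain UMIs, the switched ratio of B6.SLE123 was 2.73 and Ighm of AngII -0.65, and in AngII Ighg2b turned to 0.16 and Jchain to 1.66, where the filter acts on Jchain itself and left 10.12 CPM, within the interval of T or NK cells (5.454 to 13.79). Ighg3 in plasma cells of B6.SLE123 turned to 4.78 under a stricter rule and to 5.06 under a rule without Jchain. The cause was not tested.

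Leaving out 1 hashtag population at a time gave an IgG share of 45.6 to 52.5% and an IgM share of 43.3 to 50.7%. The switched ratio ran from 3.09 to 3.51 for B6.SLE123 and from 0.72 to 0.96 for AngII, and Ighm in B cells from -0.50 to -0.38 and from -0.72 to -0.65. In plasma cells Ighg2b ran from -1.82 to 6.41 for B6.SLE123 and from -3.28 to 5.22 for AngII, and Ighg3 of B6.SLE123 from -3.00 to 4.64. Each highest value came without C0302 of control for Ighg2b and without C0306 of control for Ighg3. A top isotype from 10 UMIs gave 0.38 (-0.84 to 1.63) for the switched ratio of AngII. With 16 control plasma cells and 1 library per group, depth and number limit all plasma cell contrasts.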
